A study of Mus musculus with 6 samples.

Results

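The receptors for neuropeptide Y present among the genes that the authors listed as changed by the histone deacetylase inhibitor CI-994 were Npy1r, Npy2r and Npy5r, encoding the Y1, Y2 and Y5 receptors. They were taken by gene symbol and make up 3 of the 475 genes in the authors' table. They were chosen by membership of that table and with their CI-994 and vehicle values already known, so those values are given as a description and are not tested. The mouse has 5 genes of this receptor family, and the other two, Npy4r and Npy6r, were not among the listed genes.

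The study measured RNA of the hippocampus by sequencing in 6 mice of strain C57Bl/6, aged 4 months, 3 in each group. The CI-994 group was injected daily with 30 mg/kg of CI-994, a benzamide that inhibits class I histone deacetylases, and the VEH group was injected daily with the vehicle of that compound. Mice of both groups had been fear conditioned to a context, had recalled that memory and had gone through spaced extinction, and tissue was taken 1 h after its last session. Each mouse gave the whole hippocampus of one hemisphere, so every cell type of the dissected tissue contributed RNA. The sex of the mice is not stated in the labels. The authors combined the 3 mice of a group into 1 expression value per gene, in arbitrary units, and values per mouse, their spread and the sequencing depth were not analysed here. Neither the value of a receptor nor the difference between groups therefore has a replicate check below, and the only p-values are those of the authors' deposited table.

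Neuropeptide Y is released in the hippocampus mainly by GABAergic interneurons, often during strong activity. Its receptors are coupled to inhibitory G proteins of the Gi/o class, which lower cyclic AMP, open inwardly rectifying potassium channels and restrain presynaptic calcium channels. Y1 acts largely on the somata and dendrites of receiving neurons, whereas Y2 sits largely on nerve terminals, where it reduces the release of glutamate and of neuropeptide Y itself. Y5 has been linked to feeding in the hypothalamus and to the damping of seizures in the rodent hippocampus. In rodents, neuropeptide Y signalling has been tied to lower anxiety and to the learning and extinction of fear.

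Npy1r and Npy5r are neighbours on chromosome 8, while Npy2r is on chromosome 3. The paired genes read away from each other from separate start sites. The promoters of all 3 receptors are shown first as a description, and their part in the group values was not tested. They come from RefSeq on GRCm38.p6 and run from 250 bases before the start site to 50 bases after it, written 5′ to 3′ on the strand of the gene. Capitals mark matches, on either strand, to the cAMP response element TGACGTCA, the AP-1 site TGANTCA, the GC box GGGCGG, the TATA box sequence TATAAA or the E-box CANNTG, and no match overlaps another. The Npy1r promoter is at chr8:66697172-66697471 on the plus strand, the Npy5r promoter at chr8:66688045-66688344 on the minus strand and the Npy2r promoter at chr3:82548036-82548335 on the minus strand.
Npy1r: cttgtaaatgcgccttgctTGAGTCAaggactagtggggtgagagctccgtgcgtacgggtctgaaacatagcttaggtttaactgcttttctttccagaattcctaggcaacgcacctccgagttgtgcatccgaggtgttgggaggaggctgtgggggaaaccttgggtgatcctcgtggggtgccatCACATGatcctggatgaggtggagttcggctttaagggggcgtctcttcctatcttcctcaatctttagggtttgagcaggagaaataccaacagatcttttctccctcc
Npy5r: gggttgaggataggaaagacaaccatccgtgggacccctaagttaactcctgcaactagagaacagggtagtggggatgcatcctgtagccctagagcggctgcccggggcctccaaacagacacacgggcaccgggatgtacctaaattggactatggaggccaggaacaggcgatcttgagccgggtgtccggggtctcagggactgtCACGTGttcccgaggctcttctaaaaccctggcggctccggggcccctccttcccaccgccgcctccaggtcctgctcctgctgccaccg
Npy2r: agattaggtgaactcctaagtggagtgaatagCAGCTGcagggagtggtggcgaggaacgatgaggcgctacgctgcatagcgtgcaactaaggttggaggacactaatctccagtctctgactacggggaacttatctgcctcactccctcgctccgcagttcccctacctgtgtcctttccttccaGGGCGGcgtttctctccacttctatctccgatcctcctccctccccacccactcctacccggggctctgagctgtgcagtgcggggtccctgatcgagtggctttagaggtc

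The 3 windows each held an E-box match and differed in their other motifs. The Npy1r window held an AP-1 match, TGAGTCA, beginning at position -231 from the start site, where -1 is the base just before it. Positions in Npy1r are counted from the start site at 66697422. The GENCODE M21 gene, with 2 transcripts, begins upstream of that site, at 66697192. A match to AP-1, the dimer of Fos and Jun proteins that activity induces in neurons, was present in 7.81% of all 32851 mouse promoters. It was present in 5.76% of the 278 promoters of genes listed as lower in CI-994. Those 278 promoters belonged to 217 of the 276 lower genes, some of which had more than 1. The AP-1 match was not found in the Npy2r and Npy5r windows. The Npy2r window held a GC box, the binding motif of Sp family factors, beginning at position -62, as did 35.7% of all promoters and 58.3% of those of genes lower in CI-994. An E-box was present in each of the 3 windows, with CACATG at position -60 in Npy1r, CAGCTG at position -218 in Npy2r and CACGTG at position -40 in Npy5r. An E-box match is common, at 72.3% of all promoters and 63.3% of those of genes lower in CI-994. The cAMP response element and the TATA box, found in 1.79% and 13.6% of all promoters, had no match in the 3 windows. Such matches describe letters only, and no binding was measured.

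The 3 promoters differed in base composition. The share of G and C was 51.7% for Npy1r, 57.7% for Npy2r and 61.7% for Npy5r, against a median of 61.7% for the promoters of genes lower in CI-994 and 52.7% for all promoters. The windows held 10, 14 and 15 CpG dinucleotides, in the order Npy1r, Npy2r and Npy5r. The median was 18 for promoters of genes lower in CI-994 and 7 for all promoters, so each receptor lay between these medians.

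All 3 receptors were lower in the CI-994 group, at between 57.2% and 66.3% of the VEH value. Of all listed genes 58.1% were lower, and the direction of the receptors was known when they were chosen, so nothing is read from this count. Npy1r, the postsynaptic Y1 receptor, was at 9.70 units in CI-994 hippocampi and 14.6 units in VEH hippocampi, a difference of -4.92 units and a log2 ratio of -0.59. Npy2r, the presynaptic Y2 receptor, had 17.1 units in CI-994 and 29.9 units in VEH, a difference of -12.8 units and a log2 ratio of -0.81. Npy5r, the Y5 receptor, had 2.36 units in CI-994 and 4.07 units in VEH, a difference of -1.71 units and a log2 ratio of -0.78. In linear terms the CI-994 values were 1.51-fold lower for Npy1r, 1.75-fold lower for Npy2r and 1.72-fold lower for Npy5r. The log2 ratios of Npy2r and Npy5r lay close together and that of Npy1r was nearer to 0, but without a spread between mice the receptors cannot be ranked by the size of their difference. The sources used here do not say whether the units are scaled by transcript length, so levels are compared within a gene and not between receptors. In bulk tissue, fewer cells with a receptor and less of its RNA per cell cannot be told apart.

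**Figure D1:**
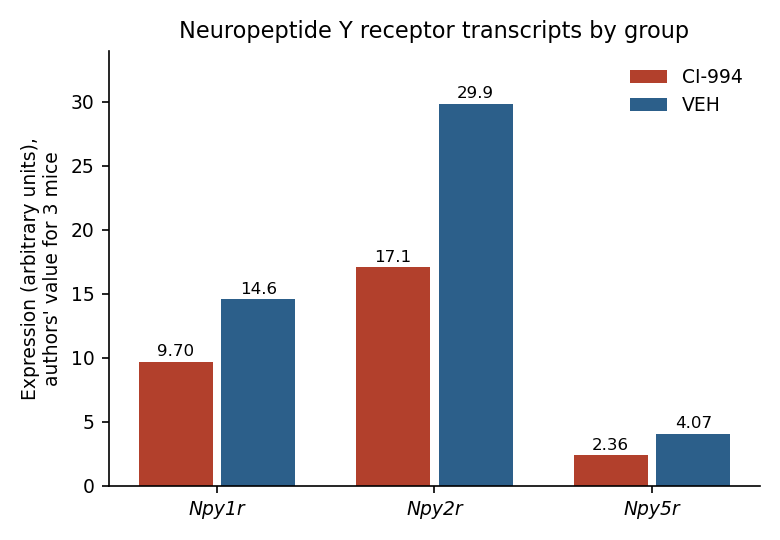
Expression of the 3 neuropeptide Y receptor genes in arbitrary units, with 1 bar per group (CI-994 on the left and VEH on the right of each pair), each the authors' single value for 3 mice, without error bars because no spread was available. For each gene the CI-994 bar is the lower one, for example 17.1 against 29.9 units for Npy2r, and heights should be compared within a gene.

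These directions follow the labelled columns of group values. The log2 column of the authors' deposited table is headed as CI-994 against VEH but carries the opposite sign in all 475 genes, reading 0.59 for Npy1r, 0.81 for Npy2r and 0.78 for Npy5r. Were that header right and the labels of the value columns exchanged, the 3 receptors would be higher in CI-994. The files alone do not settle which of the labels is in error.

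The authors' p-values separated the receptors more than their ratios did. In the authors' deposited table the p-value was 9.9e-06 for Npy2r, 0.00371 for Npy1r and 0.0358 for Npy5r. Npy2r thus had the 61st smallest p-value of 475 listed genes and the 19th smallest of the 276 lower ones. Npy1r came 170th in the table and 84th among lower genes, and Npy5r came 387th and 217th. At p up to 0.01 the table kept Npy1r and Npy2r as lower genes, where 26.1% of the table was both lower and below that limit. At p up to 0.001 it kept Npy2r, beside 11.4% of the table in the lower direction. The p-values are not called adjusted, and how many genes were tested is not stated in the sources used here. A Benjamini-Hochberg adjustment was made over an assumed 10000, 15000 or 20000 genes, with unlisted genes given the largest possible p. On that assumption Npy2r alone of the 3 would pass at 0.05, where 9.89%, 8.63% and 7.16% of the table would pass as lower genes.

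The log2 ratios of the 3 receptors were all below the median of the 276 lower genes, which was -0.50. All 3 had an absolute log2 ratio of at least 0.5, as did 29.1% of the table in the lower direction. With the labels of the value columns exchanged, the shares of the table that are lower would be 32.8% at this limit and 23.6% at p up to 0.01. In order of absolute ratio over the whole table, Npy1r stood between Eepd1 (-0.59) and Slc39a13 (0.59), Npy5r between Cdr2 (0.77) and Trpm3 (0.79), and Npy2r between Bmp6 (0.80) and Thbs3 (0.82). 5 of these 6 neighbours were higher in CI-994, so genes with differences of this size were present in both directions.

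**Figure D2:**
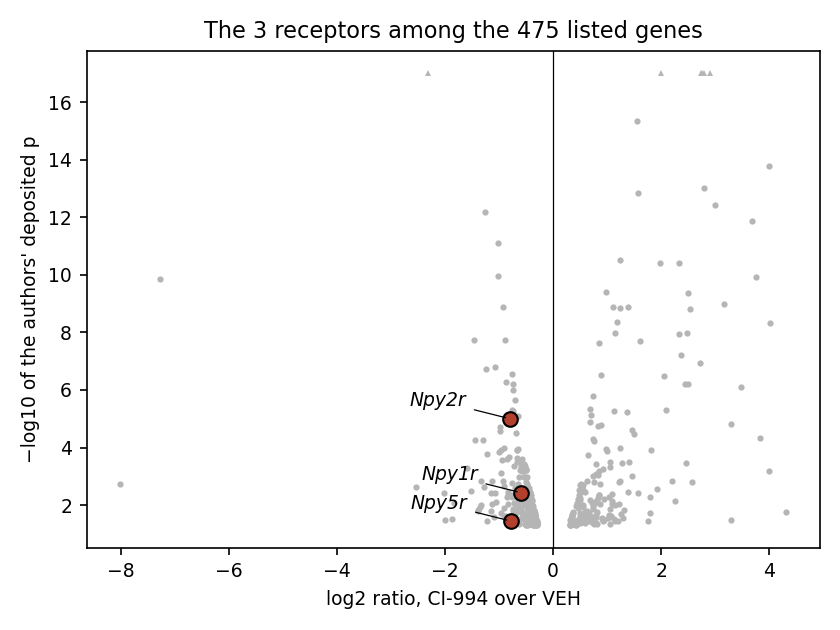
Each point is 1 of the 475 listed genes, with its log2 ratio of CI-994 over VEH on the horizontal axis and −log10 of the authors' deposited p on the vertical axis; triangles at the top mark p-values given as 0. The 3 receptors (large points) have similar ratios, between -0.81 and -0.59, and spread along the p axis with Npy2r uppermost and Npy5r lowest.

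Npy1r and Npy5r form a divergent pair. In the authors' mm9 coordinates Npy5r spans 69203863 to 69211993 and Npy1r spans 69221320 to 69230697 on chromosome 8, with 9327 bases between the loci. In the GENCODE M21 annotation of GRCm38, Npy5r is read from the minus strand and Npy1r from the plus strand, with 9328 bases between the start sites of their first listed transcripts. The loci do not overlap, so no read position is shared by the pair. Npy2r spans 82342304 to 82352007 on chromosome 3. All 3 are short protein-coding genes, with mm9 loci of 9377 bases for Npy1r, 9703 for Npy2r and 8130 for Npy5r. Of the first listed transcripts, Npy2r and Npy5r have 2 exons with the whole coding sequence, of 1143 and 1398 bases, in 1 of them, and Npy1r has 3 exons with its 1146 coding bases in 2 of them.

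The 2 receptor genes of chromosome 8 had the same direction, with log2 ratios of -0.59 and -0.78. Pairs of listed genes that follow each other within 50 kb were 22 in the table, of which 15 shared a direction and 7 had opposite directions, and 8 pairs were lower in both genes. The receptor pair is 1 of those 8. Others of the 8 were Trp53i11 and Tspan18 (-0.57 and -0.98), Htra4 and Plekha2 (-1.22 and -0.66) and Lct and Mcm6 (-0.77 and -0.97). Their gaps were 2, 182 and 3272 bases, shorter than the 9327 bases of the receptor pair. The 8 also held Parvb and Parvg (-0.48 and -0.84), 9110 bases apart, and Uty and Ddx3y of the Y chromosome (-8.01 and -7.27). These pairs were chosen for mention after their values were seen. A shared direction with a near neighbour was thus not confined to the receptors.

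**Figure D3:**
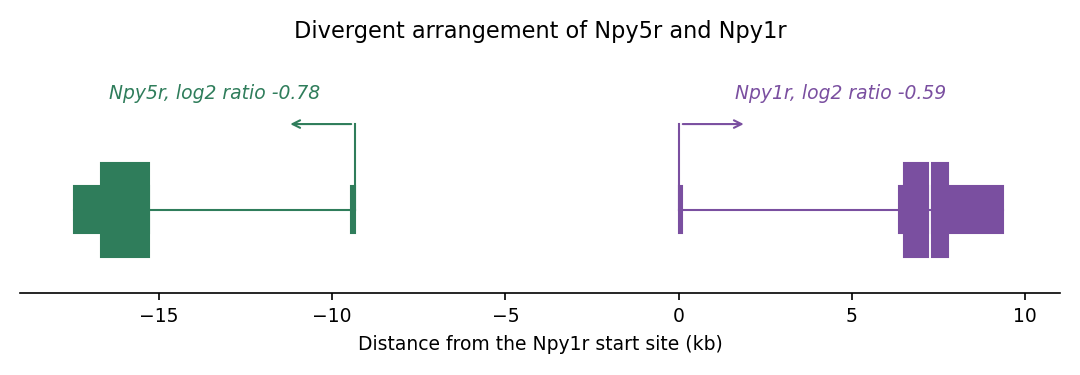
Map of the Npy5r and Npy1r genes on GRCm38, with distance in kb from the Npy1r start site on the horizontal axis; thick boxes are coding sequence, thinner boxes the untranslated parts of exons, lines introns, and arrows give the direction of reading. The start sites lie 9.33 kb apart and point away from each other.

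Elsewhere in the neuropeptide Y pathway the listed genes were few. Npy itself, the related peptides Pyy and Ppy, and the peptidases that trim or degrade them, such as Dpp4, whose cut leaves a form with little affinity for Y1, were a list of 10 genes, and 0 of them were in the table. Absence from a table of changed genes does not show that a gene was unchanged. Of 44 receptors for other neuropeptides, among them those for somatostatin, opioids, galanin, cholecystokinin and corticotropin-releasing hormone, 0 were in the table. Of the 49 neuropeptide receptor genes looked up, only Npy1r, Npy2r and Npy5r were therefore listed. They were chosen because they were listed, so nothing is read from this count.

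Downstream of the receptors, 4 of 43 genes looked up for Gi/o proteins, potassium channels, adenylyl cyclases and regulators of G protein signalling were listed. All 4 were lower, with a median log2 ratio of -0.40, where 58.1% of all listed genes were lower. The 43 genes did not hold every gene of these classes. Outside them the regulator Rgs11 (log2 ratio 1.08) and the adenylyl cyclase Adcy6 (0.47) were also listed, both higher in CI-994. Of other potassium channel genes, Kcne2 (3.67) and Kcnj13 (3.48) were higher. Kcnd2 (-0.42), Kcng2 (-0.39), Kcns2 (-0.45) and the channel-interacting Kcnip4 (-0.48) were lower. Adcy1, a calcium-stimulated adenylyl cyclase of neurons, had 114.7 units in CI-994 hippocampi and 156.2 in VEH hippocampi (log2 ratio -0.45). Rgs7, which speeds the shut-off of Gi/o proteins, had 24.0 units in the CI-994 group and 32.6 in the VEH group (-0.44). Adcy2, another adenylyl cyclase, had a log2 ratio of -0.30 and the G protein gamma subunit Gng7 one of -0.36. The receptor ratios, from -0.81 to -0.59, were all further from 0 than those of these 4 genes, but nearer to 0 than that of Rgs11. The inwardly rectifying channel genes that were looked up, Kcnj3, Kcnj5, Kcnj6 and Kcnj9, were not in the table. Kcnj13, named above, is another gene of such channels. The genes of the Gi and Go alpha subunits were not in the table.

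Among receptors of other slow transmitters, 6 of 32 monoamine and muscarinic receptor genes were listed, 5 of them lower and 1 higher. Of all listed genes 58.1% were lower, so nothing is read from the directions of these genes or of the precursors below. The lower ones were the serotonin receptors Htr4 (log2 ratio -0.73) and Htr1a (-0.41), the muscarinic receptor Chrm3 (-0.65), the dopamine receptor Drd5 (-0.65) and the adrenergic receptor Adra1d (-0.38). Htr2c, a serotonin receptor that is also abundant in the choroid plexus, had 17.8 units in CI-994 mice and 8.21 in VEH mice (log2 ratio 1.12). Of 28 neuropeptide precursor genes 4 were listed. Pdyn (-1.51), Penk (-1.46) and Adcyap1 (-1.34), encoding dynorphin, enkephalin and the peptide PACAP, were lower by larger ratios than the receptors, and Vip, an interneuron peptide, was higher (0.69).

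The listed genes most like each receptor were found by Euclidean distance over the 2 log2 group values, so their direction follows from the choice. Nearest to Npy1r were Smoc2 at a distance of 0.099, Dact2 at 0.11 and Gabrd at 0.14. Gabrd encodes the delta subunit of extrasynaptic GABA-A receptors. Nearest to Npy2r were Chrm3 at 0.14, the chemokine gene Cxcl12 and the scaffold gene Iqgap2, both at 0.26. Nearest to Npy5r were the axon guidance gene Sema5b at 0.080, the protease inhibitor gene Serpinb1a at 0.086 and Htr4 at 0.10. With 2 values per gene, such nearness says only that the level and the ratio were alike in the authors' units.

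The cell markers in the same samples differed between the groups, and their part in the receptor values was not tested. The marker lists, here and in the next paragraph, were chosen with earlier results of these data known. How many of each list were listed is therefore a description only. For the granule neurons of the dentate gyrus, 16 of 20 marker genes were listed, all of them lower, with a median log2 ratio of -0.82 and a summed level of 233.5 units in CI-994 and 439.4 in VEH. The receptor ratios lay within the range of these markers, from -2.32 for C1ql2 to -0.35 for Calb1. That range also held the median of all lower genes, -0.50, so lying in it does not mark a likeness to these cells. Markers of CA3 and CA2 pyramidal cells were 4 of 15, all lower, with a median of -0.81 and sums of 181.1 units in CI-994 and 280.9 in VEH. Those of CA1 were 3 of 12, all lower, with a median of -0.41 and sums of 69.8 and 105.7 units in CI-994 and VEH. Over the whole table the median was -0.34 and 58.1% of the genes were lower. None of the listed markers of hippocampal neurons was at 0 in either group.

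Markers of interneurons, the class to which the cells making neuropeptide Y belong, were listed for 3 of 26 genes, with Vip higher and Calb2 (-0.52) and Reln (-0.39) lower, and sums of 33.7 units in CI-994 and 34.6 in VEH. Markers of the choroid plexus, an epithelium outside the hippocampus proper, were listed for 24 of 25 genes and all 24 were higher, with a median of 2.73 and sums of 594.1 units in CI-994 and 117.1 in VEH. Cortical and subicular markers were 2 higher and 4 lower of 16, and thalamic, habenular and striatal ones 1 higher and 5 lower of 17. Glial and endothelial ones were 1 higher and 2 lower of 17. The share of lower genes in the whole table was 58.1%. The sex-linked transcripts also differed, with Xist at 25.3 units in CI-994 and 8.46 in VEH, Ddx3y at 0.0503 and 7.73 units, and Uty at 0.00821 and 2.12 units, in the same order. By these transcripts the groups differed in their mix of male and female tissue, whose part in the receptor values cannot be told apart from the treatment with 1 value per group.

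**Figure D4:**
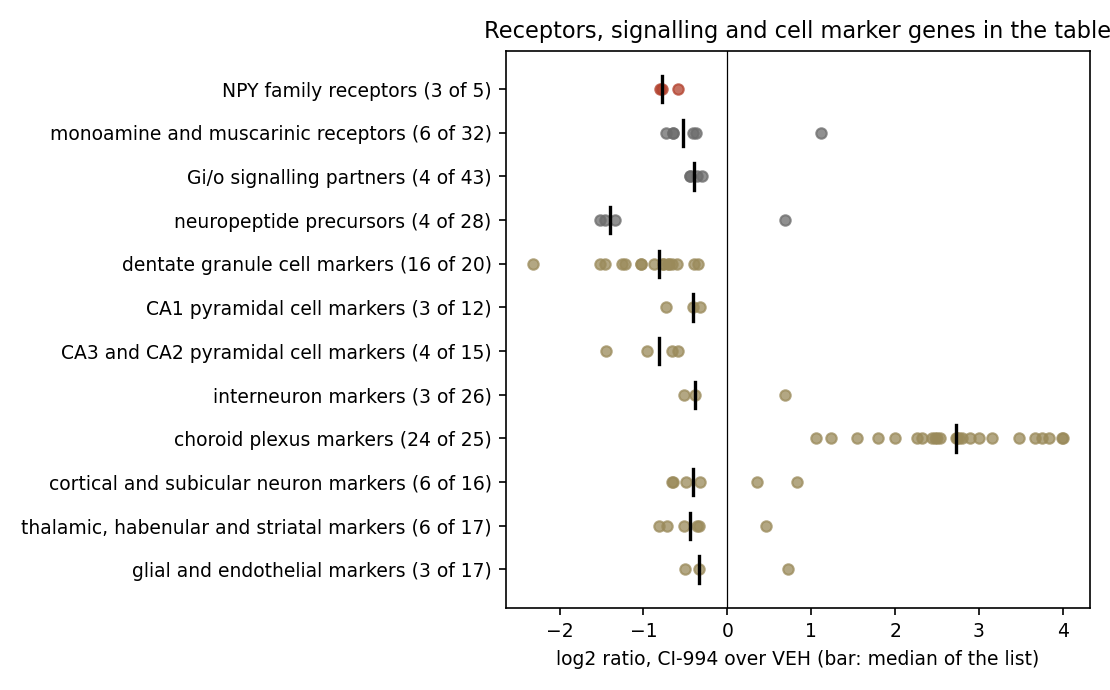
Log2 ratios of CI-994 over VEH for the listed genes of each gene list (points, with the number listed of the number looked up) and the median of each list (black bar). The lists were chosen with earlier results of these data known. The 3 receptors, in the top row, lie between -0.81 and -0.59, beside lower dentate markers with a median of -0.82 and choroid plexus markers with a median of 2.73.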

How the data were processed

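RNA sequencing of hippocampus was compared between 3 CI-994 and 3 VEH mice. The authors used TopHat and Cuffdiff with build mm9, per the submitters' processing notes. The sources used here do not state versions, annotation, scaling or filters. The authors deposited a table of 475 genes. Its expression signal is in arbitrary units with 1 value per group, per the file headers. Its log2 column is a fold change and its p-value column the authors' test of CI-994 against vehicle, per the file headers. The largest deposited p-value is 0.0500, so the table holds listed genes only. The deposited log2 equals log2(VEH/CI-994) within 0.0001 in 475 genes, and its sign matches its header in 0.

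Log2 ratios of CI-994 over VEH were computed from the group values without a pseudocount, using Python 3.11.15 and matplotlib 3.10.9. No count model could be run, because the table holds no values per mouse; it gives no depth, so no counting interval was computed. All 3 receptors had at least 1 unit in both groups, as did 427 of 475 genes. The receptors and the gene lists were chosen with earlier results of these data known, and support nothing independently. Text names the receptors, the listed genes of the receptor, signalling and peptide lists, and the 3 genes nearest to each receptor. It also names the neighbours of each receptor in order of ratio, and up to 3 members of each marker list. Calb1 was added as the end of a range, and the pairs of neighbouring genes as said. Rgs11, Adcy6 and further potassium channel genes were added as listed genes outside the signalling list. Symbols were matched to RefSeq, older names included, for 474 of 475 genes. Loci are printed as in the authors' table; promoters and gene structures are on GRCm38 and were not converted. The search for nearest genes, the adjustment and the motif search were tested on simulated data.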

Additional observations from a re-analysis of the deposited data

How the results depend on the processing

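A pseudocount of 1 brought the log2 ratio of Npy5r to -0.59; a pseudocount cannot turn a direction, by construction. Read by the header of the deposited log2 column, the ratios become 0.59 for Npy1r, 0.81 for Npy2r and 0.78 for Npy5r, 0 receptors are lower, and 41.9% of the table is lower in place of 58.1%, by construction. The count of lower receptors was 3 where both groups had at least 1 unit or the absolute ratio reached 0.5 (log2), 2 at p up to 0.01 and 1, Npy2r, at p up to 0.001, as stricter limits keep fewer genes. With 10000, 15000 or 20000 genes assumed tested, the Benjamini-Hochberg method kept 1 receptor each time, Npy2r, with adjusted p from 0.00162 to 0.00325; Npy1r had 0.215 to 0.430 and Npy5r 0.922 to 1. Unlisted genes were given the largest possible p in that method, so its adjusted values are upper limits. The lower share of the table was 52.5% at p up to 0.01 and 62.1% with at least 1 unit in both groups. No paired analysis was possible because the table gives 1 value per group, and leaving out single mice was not run for the same reason. The depth behind the group values is unknown.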
